A study of Mus musculus with 6 samples.

Results

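Gas5, Snhg1, Snhg3, Snhg5, Snhg6, Snhg7, Snhg8 and Snhg12 are noncoding host transcripts of small nucleolar RNAs (snoRNAs). These 8 genes were chosen by symbol, and all 8 were measured, out of 23185 named genes on the arrays. SnoRNAs are short RNAs that guide the chemical modification and cleavage of ribosomal RNA, and most of them are cut out of the introns of longer host transcripts. C/D snoRNAs direct methylation of the ribose by fibrillarin, and H/ACA snoRNAs direct pseudouridylation by dyskerin. Some hosts encode no protein of their own: their spliced exons leave the nucleus, are translated poorly or not at all, and are often cleared by nonsense-mediated decay, while the intronic guide RNA is kept in a protein particle. The snoRNA is called the guide RNA of its host below.

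A group 2 innate lymphoid cell (ILC2) line from C57BL/6J mice, grown in 10 ng/ml of the cytokines IL-2 and IL-33, received a lentiviral CRISPR construct with GFP and a guide. The CRISPR guide was directed at Myc in 3 arrays, labelled Myc knockout, and was a non-target control in the other 3 arrays. Every sample was sorted for GFP on day 6, so cells of both groups were selected for the construct. What share of them carried it, or an edited Myc gene, was not tested. Whether replicate arrays stand for separate cultures is not in the labels, so p-values cover the spread between these arrays alone, which may be technical. Values are log2 expression values that the authors made with RMA, a method that brings the probe intensities of all arrays to 1 distribution before it summarises each probe set. Differences are arrays labelled Myc knockout minus control, from limma's moderated test over all 23185 genes, and "rose" or "fell" is used at a Benjamini-Hochberg adjusted p under 0.05.

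Myc, the transcription factor gene that the CRISPR guide targeted, had log2 values of 9.55, 9.79 and 9.73 in the arrays labelled Myc knockout, against 9.27, 9.33 and 9.39 in the controls. The labelled knockout arrays were thus the higher ones, with a difference of 0.36 ± 0.080 (SE) that did not pass over all genes (limma's adjusted p = 0.127) and passed when only genes at or above the median level were tested (0.0487). The mRNA level went against the label, although a small insertion or deletion need not lower an mRNA, and every direction below rests on the labels. ILC2 genes were bright, with mean log2 values of 11.2 for Il13, 9.77 for Il5 and 9.44 for Gata3, while Thy1 (3.26) and Il17rb (2.10) lay below the array medians of 3.27 to 3.34. Of the 13 ILC2 genes measured, 1 rose and 0 fell (4 higher and 3 lower by limma at p under 0.05 before adjustment, beside 6.97% and 7.91% of all genes). Il5, the cytokine gene that drives eosinophils, rose by 0.49 ± 0.061 on the log2 scale, to a mean of 10.01 in the arrays labelled Myc knockout, against 9.53 in the controls (limma's adjusted p = 0.0386). Markers of other cells were mostly dim: 6 of 8 T cell, 4 of 5 B cell, 5 of 7 NK cell and ILC1, 5 of 5 ILC3, 4 of 6 myeloid and 4 of 6 mast cell or basophil markers had a mean log2 value below 3.34, the median of the 23185 gene means. Il17a (3.32) and Klrb1c (3.33) lay just under that value. The brightest marker lay above it for mast cells and basophils (7.77), NK cells and ILC1 (7.45), myeloid cells (6.30), T cells (5.26) and B cells (3.47). Of all these markers of other cells 1 passed, the ILC3 cytokine gene Il17a. It rose by 0.95 on the log2 scale to a mean of 3.79, against 2.84 in the controls. Their part in the results below was not tested.

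The start sites of the hosts are shown because the sequence there bears on how hosts are known to be controlled: MYC binds the letters CACGTG, and many snoRNA hosts begin with a C and a run of pyrimidines, the mark of growth-controlled TOP transcripts. RefSeq promoter sequences (GRCm38.p6) were matched for 7 of the 8 hosts, with 8 start sites, since Gas5 had a pair. Each line below runs 5′ to 3′ on the transcript's strand from 60 bases before the annotated start to 40 bases from it onward. Capitals mark TATAA where it begins 40 to 20 bases before the start and an unbroken run of at least 3 pyrimidines that begins at the start.
Gas5, upstream start (chr1:161034541-161034640, plus strand): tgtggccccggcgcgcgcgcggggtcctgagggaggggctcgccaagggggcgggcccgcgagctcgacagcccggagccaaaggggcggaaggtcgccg
Gas5, downstream start (chr1:161035106-161035205, plus strand): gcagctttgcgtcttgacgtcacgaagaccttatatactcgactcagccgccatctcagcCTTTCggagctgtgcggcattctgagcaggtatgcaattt
Snhg1 (chr19:8723427-8723526, plus strand): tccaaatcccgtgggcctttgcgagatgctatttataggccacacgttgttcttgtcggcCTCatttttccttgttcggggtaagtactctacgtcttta
Snhg3 (chr4:132353647-132353746, minus strand): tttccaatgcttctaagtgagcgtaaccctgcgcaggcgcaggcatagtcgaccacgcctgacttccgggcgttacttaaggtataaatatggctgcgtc
Snhg5 (chr9:88522858-88522957, minus strand): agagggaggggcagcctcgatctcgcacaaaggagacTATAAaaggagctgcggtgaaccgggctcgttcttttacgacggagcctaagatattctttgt
Snhg7 (chr2:26640205-26640304, minus strand): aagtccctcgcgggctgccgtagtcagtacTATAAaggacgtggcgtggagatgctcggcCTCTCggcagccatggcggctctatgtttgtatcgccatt
Snhg8 (chr3:123508297-123508396, minus strand): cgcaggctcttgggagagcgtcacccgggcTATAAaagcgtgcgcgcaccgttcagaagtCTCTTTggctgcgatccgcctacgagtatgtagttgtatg
Snhg12 (chr4:132308618-132308717, plus strand): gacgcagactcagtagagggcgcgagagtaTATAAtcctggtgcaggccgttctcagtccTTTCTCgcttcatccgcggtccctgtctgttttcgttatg

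TATAA, searched on the transcript's strand, stood in that window at 4 of the 8 starts, at 30 bases before the start in Snhg7, Snhg8 and Snhg12 and at 23 in Snhg5, while 3.52% of 32851 RefSeq promoters held it there. In Snhg3 it came 22 bases after the annotated start. A start on C with a pyrimidine run of at least 5 was found at 3 of the 8 starts (the downstream Gas5 start, Snhg7 and Snhg8), against 2.51% of all promoters, and the run at Snhg12 had 6 pyrimidines but opened with T. CACGTG, which reads the same on both strands, was in 0 of the 8 promoters of 300 bases (250 before the start and 50 from it onward) and in 7.15% of all. At that share, 0 among 8 says little. These are matches of letters in a window, and whether MYC or any other protein binds there was not tested.

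None of the 8 hosts rose or fell in the arrays labelled Myc knockout, where 0.453% of all genes passed (0.254% rose and 0.198% fell). Their median log2 difference was 0.021, beside 0.0077 over all genes tested, and 5 of the 8 differences were positive, where 52.2% of all genes and 42.0% of the 11593 genes at or above the median level had positive differences. All 8 hosts were at such levels. Adjusted p-values in limma ran between 0.0998 and 0.919. At an unadjusted p under 0.05, limma gave 1 host higher and 0 lower, where 6.97% of all genes were higher and 7.91% lower, so a count of 1 among 8 says little. That balance over all genes moved with the scaling, with 1616 higher and 1834 lower as deposited and 1196 and 2216 after median centring.

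Gas5, first found as a transcript that builds up in growth-arrested cells, gave 7.32, 7.25 and 7.20 in the arrays labelled Myc knockout, against 7.24, 7.19 and 7.19 in the controls. The groups overlapped and the values of all 6 arrays lay within 0.13 log2 units. The means were 7.26 ± 0.060 and 7.21 ± 0.030 (SD, n = 3 each), a difference of 0.048 ± 0.059 (limma's adjusted p = 0.727). The 95% interval of the difference ran from 0.938-fold to 1.14-fold. Snhg1, the host that carries Snord22, gave 8.10, 8.03 and 8.10 in the arrays labelled Myc knockout and 8.09, 7.96 and 8.12 in the controls. Its arrays overlapped as well, with a difference of 0.018 ± 0.065 and an interval from 0.908-fold to 1.13-fold. Snhg5, which hosts C/D snoRNAs, gave 6.73, 6.68 and 6.68 in the arrays labelled Myc knockout, inside the control values of 6.80, 6.65 and 6.56. Its difference was 0.023 ± 0.075 (interval 0.897-fold to 1.15-fold). The signs of Snhg1 and Snhg5 turned to −0.0075 and −0.0017 under median centring.

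Snhg8, the host of Snora24, was the 1 host whose groups did not overlap, a state that 9.25% of all genes shared in that direction. It gave 6.78, 6.97 and 7.01 in the arrays labelled Myc knockout, against 6.58, 6.47 and 6.48 in the controls. Every labelled knockout array was above every control array. The means were 6.92 ± 0.12 and 6.51 ± 0.062 (SD, n = 3 each), a difference of 0.40 ± 0.079 (SE) or 1.32-fold with a 95% interval from 1.16 to 1.51. Over all genes it missed the threshold (limma's adjusted p = 0.0998), and it passed at 0.0357 when only genes at or above the median level were tested. Snora24 is not analysed here.

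Snhg12, host of H/ACA and C/D guide RNAs, gave 5.51, 5.54 and 5.24 in the arrays labelled Myc knockout and 5.18, 5.36 and 5.19 in the controls. Replicate 3 of its labelled knockout arrays lay among the controls, and the difference of 0.19 ± 0.10 did not pass (limma's adjusted p = 0.429); without that array it was 0.28. Snhg3, host of the U17 RNAs Snora73a and Snora73b, gave 5.70, 5.74 and 5.74 in the arrays labelled Myc knockout, all within the control values of 5.92, 5.77 and 5.65. The difference was −0.051 ± 0.080 with an interval from 0.846-fold to 1.10-fold. Snhg6, host of Snord87, gave 7.13, 7.06 and 6.88 in the arrays labelled Myc knockout and 7.14, 7.11 and 7.12 in the controls, a difference of −0.095 ± 0.077, which was −0.024 once the third labelled knockout array (6.88) was left out. Snhg7, host of Snora17 and Snora43, was the most scattered: 5.47, 4.89 and 5.21 in the arrays labelled Myc knockout, against 5.42, 5.30 and 5.30 in the controls. Its difference of −0.15 ± 0.14 rested on replicate 2 of the arrays labelled Myc knockout, without which it was −0.0039, and its interval, from 0.708-fold to 1.14-fold, was the widest of the 8.

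**Figure D1:**
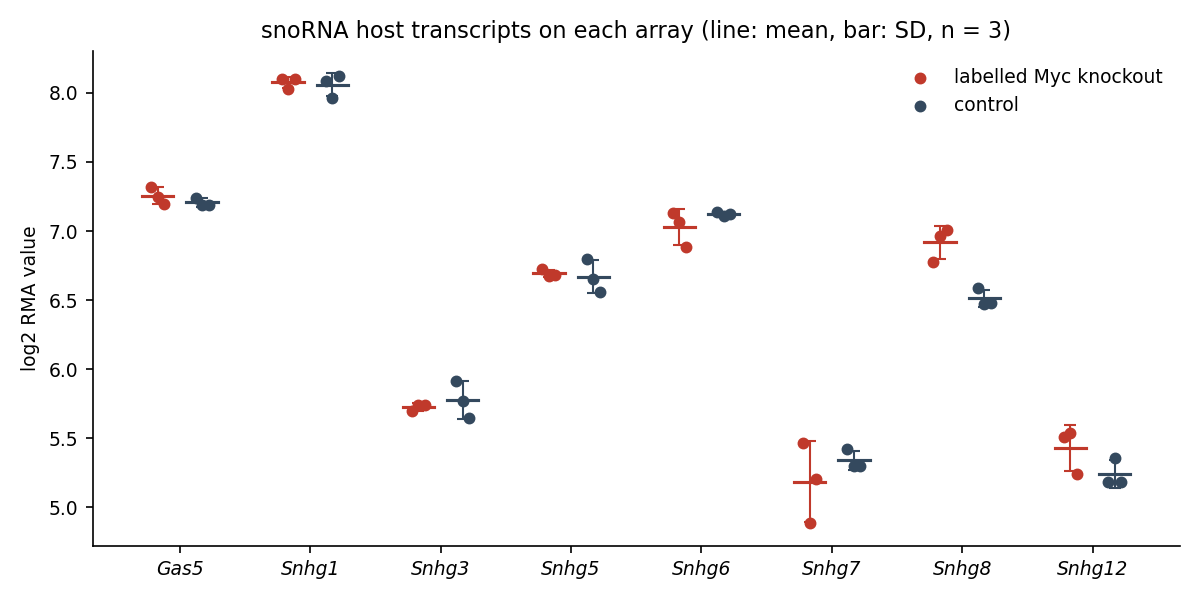
Log2 RMA values (vertical axis) of the 8 host transcripts on each of the 3 arrays labelled Myc knockout (left of each pair) and the 3 control arrays (right), with the mean as a line and the SD as a bar. Snhg8 is the host whose groups stand apart, at 6.78 to 7.01 against 6.47 to 6.58, and Gas5 stays between 7.19 and 7.32 on all 6 arrays.

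Among the guide RNAs inside these hosts, 2 rose in the arrays labelled Myc knockout although no host did. The RefSeq gene table places 28 snoRNA genes within the spans of the 8 hosts, and 11 of them were measured: 7 of the H/ACA class and 4 of the C/D class. The table gives no strand, so position alone assigned them. Of the 11, 2 rose and 0 fell, where 6.96% of the 115 measured snoRNA and Cajal body RNA genes rose. By limma at p under 0.05 before adjustment, 5 of the 11 were higher and 0 lower, beside 6.97% and 7.91% of all genes. Both that rose lie in Snhg3. Among the arrays labelled Myc knockout, replicate 1 gave the highest value for all 11 guide RNAs, so these are not 11 separate observations. Without that array Snora17, in Snhg7, differed by 0.52 rather than 0.69. Snora44, in Snhg12, then differed by 0.35 rather than 0.53.

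Snora73a, a U17 RNA that takes part in the cleavage of the ribosomal RNA precursor, gave 6.75, 6.57 and 6.41 in the arrays labelled Myc knockout, against 5.57, 5.38 and 5.45 in the controls. The groups did not overlap, a state that 9.25% of all genes shared in that direction. The means were 6.58 ± 0.17 and 5.46 ± 0.095 (SD, n = 3 each). Snora73a rose 2.17-fold, with a 95% interval from 1.83 to 2.57 (limma's adjusted p = 0.0205). Snora73b, its close relative in another intron, gave 8.21, 8.01 and 7.75 in the arrays labelled Myc knockout, against 6.99, 6.62 and 6.75 in the controls. It too had no overlap between groups and rose 2.30-fold, with an interval from 1.81 to 2.92 (adjusted p = 0.0353 in limma). The pair are similar in sequence, so a probe set can read both, and they are not independent counts. Leaving out any 1 of the 6 arrays ended both calls, with log2 differences of 1.03 to 1.20 for Snora73a (limma's adjusted p = 0.0701 to 0.157) and 1.09 to 1.32 for Snora73b (0.0934 to 0.175).

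The host Snhg3 differed by −0.051 on the same arrays. Relative to Snhg3 on the same array, the log2 value of Snora73a was higher by 1.17 in the arrays labelled Myc knockout (SD 0.19) than in the controls (SD 0.10, n = 3 each), and that of Snora73b by 1.25 (SD 0.25 and 0.14). Neither pair of groups overlapped, and p was 0.1 for each by an exact permutation test (two-sided), the smallest that 3 against 3 arrays allow. Snhg3 ranged over 0.27 log2 units, less than the gap between the groups of either guide RNA. The lack of overlap in these ratios thus followed from the guide values already called and is no separate evidence. In all 11 guide and host pairs were compared this way, so no adjusted value could pass. The sources used here do not give where the probes of a host's probe set lie, so what share of a host's signal comes from spliced RNA was not tested.

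The other H/ACA guide RNAs were spread between no difference and a gain that did not pass. Snora17, in Snhg7, gave 8.27, 7.86 and 7.69 in the arrays labelled Myc knockout, against 7.14, 7.26 and 7.35 in the controls. The groups did not overlap, and the difference of 0.69 ± 0.15 missed the threshold (limma's adjusted p = 0.127; 0.0487 among genes at or above the median level). Relative to Snhg7 it was higher by 0.84 in the labelled knockout arrays, again without overlap (exact permutation p = 0.1). Its neighbour in the same host, Snora43, differed by −0.033 ± 0.11 with overlapping groups. In Snhg12, Snora44 and Snora61 had differences of 0.53 ± 0.19 and 0.26 ± 0.083 without overlap between groups, and Snora16a had −0.0029 ± 0.14. None of these 3 passed. Over all genes, 9.25% had every labelled knockout array above every control array.

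All 4 C/D guide RNAs had negative differences, and 0 passed or had an unadjusted p under 0.05 in limma. Among the other 61 C/D RNAs 25 had positive differences, and 58.0% of genes at or above the median level had negative ones, so 4 of 4 says little. Snord47, a methylation guide within Gas5, gave 9.61, 9.43 and 9.52 in the arrays labelled Myc knockout and 9.52, 9.54 and 9.58 in the controls, a difference of −0.026 ± 0.066 beside 0.048 for Gas5. Snord22 in Snhg1 differed by −0.097 ± 0.11, Snord87 in Snhg6 by −0.12 ± 0.13 and Snord99 in Snhg12 by −0.25 ± 0.11 (limma's adjusted p = 0.345 for the last). Relative to Snhg12, Snord99 was lower by 0.44 in the labelled knockout arrays without overlap (log2 change −0.44, exact permutation p = 0.1). Over the whole table, 5 of the other 27 H/ACA RNAs rose and 0 of the other 61 C/D RNAs did, with medians of 0.41 and −0.053. Within the hosts the medians were 0.53 for the 7 H/ACA RNAs and −0.11 for the 4 C/D RNAs.

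**Figure D2:**
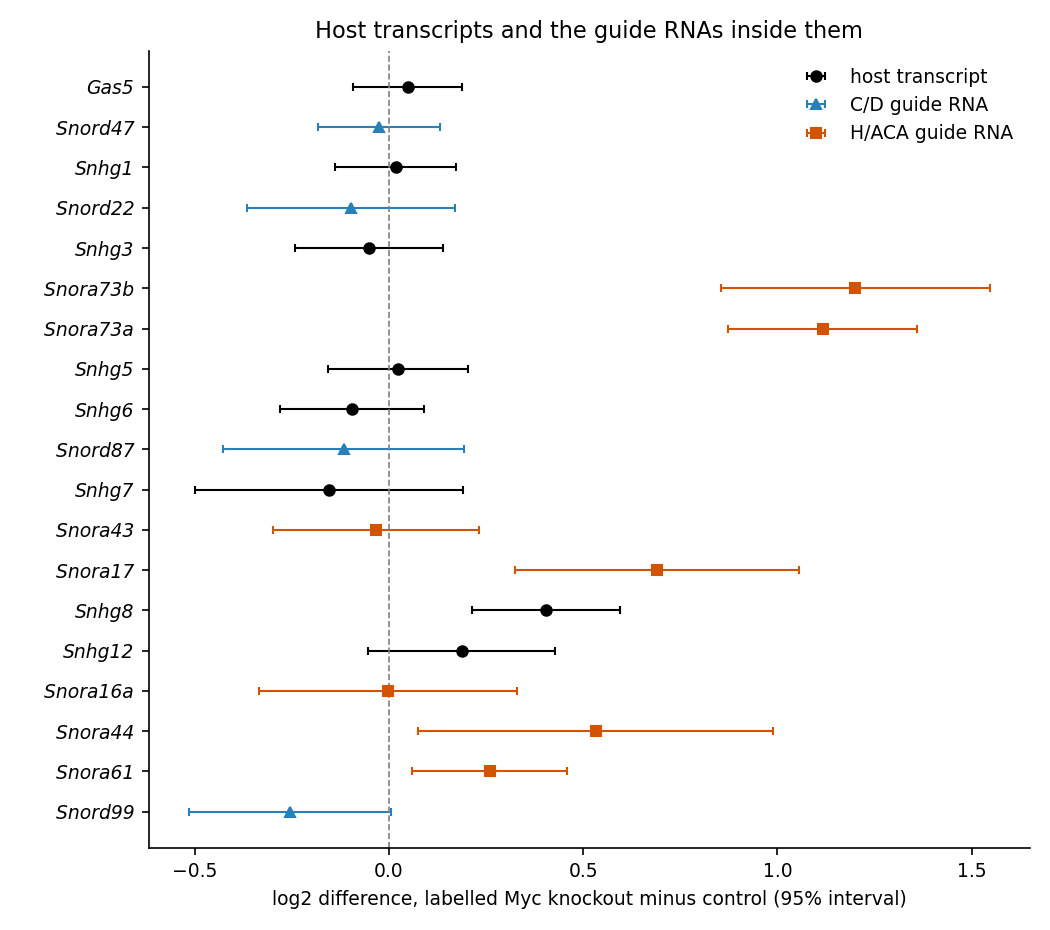
Log2 difference, arrays labelled Myc knockout minus control, with its 95% interval (horizontal axis) for each host transcript (circles) and, under it, the measured H/ACA (squares) and C/D (triangles) guide RNAs inside it. Snora73a and Snora73b lie at 1.12 and 1.20 while their host Snhg3 lies at −0.051.

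**Figure D3:**
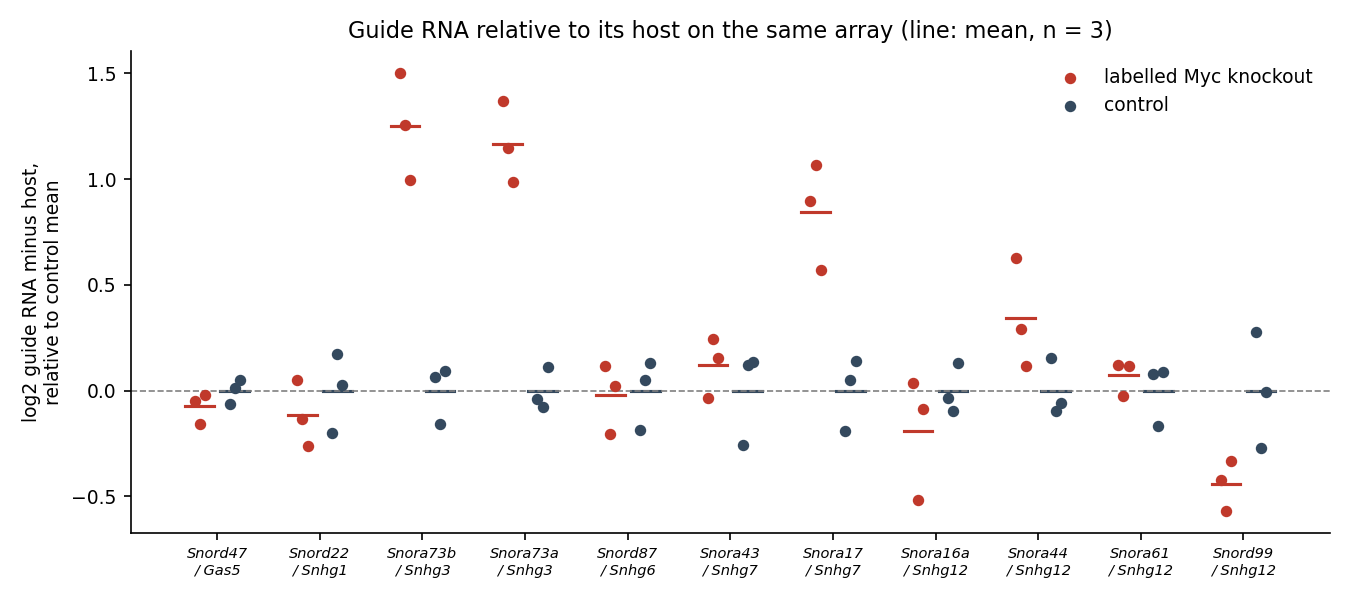
Log2 value of each guide RNA minus that of its host on the same array, set to 0 at the control mean (vertical axis), for the 3 arrays labelled Myc knockout (left of each pair) and the 3 controls (right), with group means as lines. Snora73b, Snora73a and Snora17 stand above their controls by 1.25, 1.17 and 0.84, and Snord99 stands below by 0.44.

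Guide RNAs of other hosts also rose beside hosts that did not pass. In all, 8 snoRNA or Cajal body RNA genes rose over the whole table, 7 of them lie in a host that was measured, and 0 of those hosts rose or fell (1, Tpt1, was higher and 0 lower by limma at p under 0.05 before adjustment, and its mean log2 values of 1.68 in the arrays labelled Myc knockout and 1.17 in the controls lay below the array medians). Snora74a, in the noncoding host Snhg4, rose by 0.99 ± 0.13 on the log2 scale (limma's adjusted p = 0.0405), and Snhg4 differed by 0.055 ± 0.055. Scarna13, a Cajal body RNA in the noncoding host Snhg10, rose by 1.14 ± 0.11 (adjusted p = 0.0251 in limma), and Snhg10 differed by −0.056 ± 0.054. For these the difference between guide RNA and host was not tested. Of 15 measured genes in a list of further Snhg and noncoding RNAs, 12 hold an annotated snoRNA in their span; Rmrp, Mir17hg and Snhg20 do not. None of the 15 passed, and their median was 0.036. By limma at p under 0.05 before adjustment, 1 was higher and 2 lower, beside 6.97% and 7.91% of all genes. Zfas1, host of snoRNAs of the Snord12 family, gave 6.34, 6.26 and 6.06 in the arrays labelled Myc knockout, against 6.54, 6.60 and 6.66 in the controls. All its labelled knockout arrays were lower, a state that 10.6% of all genes shared. The difference of −0.38 ± 0.087 did not pass (limma's adjusted p = 0.137).

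Hosts that encode proteins, mainly translation and ribosome genes, gave no call. Of 28 measured, 0 passed, where 0.453% of all genes did. Positive differences numbered 13 (46.4%, beside 52.2% of all genes) and the median was −0.0099. By limma at p under 0.05 before adjustment, 6 were higher and 0 lower, beside 6.97% and 7.91% of all genes. For 5 of the 28 the mean log2 value lay below 3.34, the median of the gene means. The 28 ran from 1.36 to 11.4, and for the dim ones the lack of a call says little. Cct6a, which encodes a chaperonin subunit, differed by 0.24 ± 0.055 (limma's adjusted p = 0.144). Of 15 TOP mRNA genes that are not in the host lists, 0 passed. At an unadjusted p under 0.05, limma gave 1 higher and 0 lower, beside 6.97% and 7.91% of all genes. The mean log2 values of the 15 ran from 4.21 to 11.7, and how well the dimmer probe sets read these mRNAs was not tested. The median difference of the 15 was −0.027, with Fau at 0.26 ± 0.083. The list is not free of hosts: Rpl5, at 0.33 ± 0.21, holds 3 annotated snoRNAs in its span.

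None of the genes for proteins that bind the guide RNAs or help to assemble their particles passed, measured as mRNA. Of 19 snoRNP proteins and assembly factors, 15 had positive differences and the median was 0.12, beside the 52.2% positive over all genes and the 42.0% of brighter genes (those with at least the median level), to which all 19 belonged. At an unadjusted p under 0.05, limma gave 7 as higher and 0 as lower, beside 6.97% and 7.91% of all genes. Of these 7, 2, Dkc1 and Nop58, are also among the 6 protein-coding hosts above. Fbl, the methyltransferase of C/D particles, differed by 0.34 ± 0.067 and Dkc1, the pseudouridine synthase of H/ACA particles, by 0.17 ± 0.065 (limma's adjusted p = 0.100 and 0.299). This direction was already known from an earlier look at related genes in the same arrays and is no separate evidence. None of 13 nonsense-mediated decay factors, which clear the spliced host RNAs, passed. Their median was −0.069 and 11 had negative differences, where 47.8% of all genes did and 58.0% of those at or above the median level (median −0.030), among which 12 of the 13 lay. At an unadjusted p under 0.05 in limma, 0 were higher and 2 lower, beside 6.97% and 7.91% of all genes. Upf1, the helicase of that pathway, differed by −0.0029 ± 0.064, and Pnrc2, a decapping adaptor, by −0.20 ± 0.067 (limma's adjusted p = 0.249).

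Gas5 RNA is known to bind the glucocorticoid receptor as a decoy, so the receptor and its response genes were set beside it. Of 12 genes, 0 passed (3 higher and 1 lower by limma at p under 0.05 before adjustment, beside 6.97% and 7.91% of all genes) and the median was −0.0093. Nr3c1, the receptor gene, differed by −0.080 ± 0.059, and Tsc22d3, a classic response gene, by 0.0046 ± 0.074. Per1, a clock gene that glucocorticoids induce, had the smallest p of the list, with 6.35, 6.45 and 6.37 in the arrays labelled Myc knockout, against 6.83, 6.68 and 6.75 in the controls. Its groups did not overlap, a state that 10.6% of all genes shared in that direction. The difference of −0.36 ± 0.065 did not pass (limma's adjusted p = 0.0851). The largest differences in size were positive, those of the immediate early genes Dusp1 and Zfp36, named after their values were seen. Dusp1, a phosphatase gene, gave 7.16, 8.01 and 8.49 in the arrays labelled Myc knockout, against 6.96, 6.91 and 6.98 in the controls, a difference of 0.94 ± 0.31 without overlap that did not pass (limma's adjusted p = 0.250). Zfp36, which encodes an mRNA decay factor, differed by 0.78 ± 0.30 with overlapping groups (adjusted p = 0.301 in limma).

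**Figure D4:**
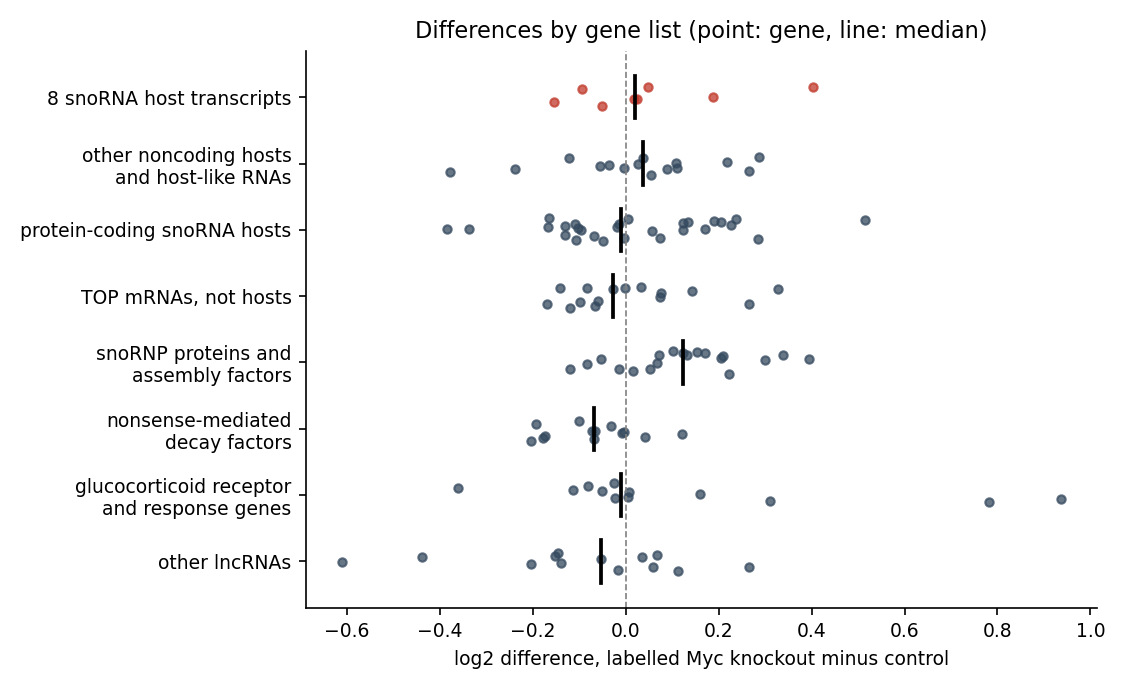
Log2 difference, arrays labelled Myc knockout minus control (horizontal axis), of every measured gene in each list (points), with the list's median as a line. The 8 hosts centre on 0.021, the snoRNP proteins on 0.12 and the nonsense-mediated decay factors on −0.069. The TOP mRNAs labelled as not hosts include Rpl5, which holds annotated snoRNAs in its span.

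Among 7413 named genes with a mean log2 value of at least 5, the profile over the 6 arrays nearest to that of Gas5 was that of Edem2, with a root mean square difference of 0.0097 log2 units after each gene was centred. Mrpl10, Ptdss1, Plxnb2 and Ttll12 followed, at 0.014 to 0.018. Nearest to the mean profile of the 8 hosts were Usp6nl, Usp20, Cdca8, Snrnp40 and Elac2, at 0.010 to 0.017. Gas5 itself lay 0.018 from that mean profile, while Snhg8 and Snhg7 lay farthest from it, at 0.20 and 0.18. All 10 genes named here had differences under 0.063, so they share a nearly level profile.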

How the data were processed

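RNA was hybridised to Affymetrix arrays. Per the submitters' processing notes, RMA gave the log2 values that the authors deposited, and limma 3.14.4 was used too; the probe set definition is not given in the sources used here, nor the build. RMA sets the probe intensities of all arrays to 1 distribution, so a shift of all transcripts is largely removed. Groups came from the sample titles. Of 25206 probe sets, 23185 had 1 gene symbol, 0 had several and 2021 had none; symbols were updated by gene number through RefSeq (GRCm38.p6), which also gave gene spans. Here limma 3.58.1 under R 4.3.3 fitted the differences (lmFit, eBayes, two-sided, Benjamini-Hochberg over 23185 genes), with no filter or covariate, and tested on simulated data. Arrays carry no read depth; their number limits the precision. The text names all 8 hosts, Myc, the guide RNAs inside the hosts, the 5 nearest profiles to Gas5 and to the hosts' mean, each list's gene with the smallest p or those past the threshold, and Snhg10, Zfas1, Scarna13, Fbl, Dkc1, Upf1, Nr3c1 and Tsc22d3. Snora74a, Snhg4, Klrb1c, Tpt1, Rpl5, Slc3a2, Dusp1, Zfp36, Nop58 and the ILC2 genes other than Il5 were named after their values were seen. Members and lists were chosen with earlier results of these data known. Alternatives were array weights, other prior variances, a replicate block, cyclic loess, median centring, a filter on dim genes, all probe sets and each array left out; those for the guide RNAs were added after their values were seen. Figures used matplotlib 3.10.9.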

Additional observations from a re-analysis of the deposited data

How the results depend on the processing

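The count of 0 hosts past the threshold held under 13 of 14 alternatives, and 1 host, Snhg8, passed among genes at or above the median level. The median of the hosts stayed between −0.0078 and 0.049. The number of genes past the threshold over the whole table was 105, 370 when the prior variance followed intensity, 549 among genes at or above the median level, and 0 to 2 when 1 array was left out. A replicate block gave 0 genes past the threshold and, at an unadjusted p under 0.05, 1486 as higher and 1560 as lower. Deviations of same-numbered arrays correlated at −0.070 to −0.012 and those of differently numbered arrays at −0.027 to 0.042. No array was closest to its own number. The values thus show no sign of pairing, which 3 arrays per group cannot settle. Signs turned for values near 0: under median centring Snhg1 was −0.0075 and Snhg5 −0.0017, under cyclic loess Snora43 was 0.012 and Snora16a 0.027, and with 1 array left out the ranges were −0.030 to 0.049 (Snhg1), −0.12 to 0.019 (Snhg3), −0.032 to 0.088 (Snhg5), −0.071 to 0.018 (Snord47), −0.12 to 0.054 (Snora43) and −0.16 to 0.11 (Snora16a). The cause was not tested. Leaving out an array leaves 5 arrays and fewer degrees of freedom.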

Other observations

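None of 13 other long noncoding RNAs measured passed. Of these, 8 (61.5%) had negative differences, beside 47.8% of all genes and 58.0% of those at or above the median level. The median was −0.053, and at an unadjusted p under 0.05 limma gave 0 higher and 3 lower, beside 6.97% and 7.91% of all genes. Neat1, the RNA that builds nuclear paraspeckles, gave 7.56, 7.46 and 7.62 in the arrays labelled Myc knockout, against 7.92, 8.05 and 8.50 in the controls. Its groups did not overlap, a state that 10.6% of all genes shared in that direction. The difference of −0.61 ± 0.15 did not pass (limma's adjusted p = 0.160).

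The protein-coding genes that overlap the 8 hosts or stand next to them on either side were measured in 18 cases. Of these, 0 rose or fell (2 higher and 0 lower by limma at p under 0.05 before adjustment, beside 6.97% and 7.91% of all genes). Their differences ran from −0.22 for Zbtb37, which overlaps Gas5, to 0.43 ± 0.10 for Ndst3 next to Snhg8, with a limma adjusted p = 0.144 for Ndst3. Ndst3 was dim, at 4.03, 3.93 and 4.04 in the arrays labelled Myc knockout, against 3.61, 3.36 and 3.74 in the controls, and its groups did not overlap. Slc3a2, next to Snhg1, differed by −0.034 ± 0.056.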
